A study of Mus musculus with 18 samples.

Results

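This account covers 6 processed pseudogenes of the mouse, *Gm5436*, *Rps15a-ps5*, *Rps15a-ps8*, *Gm16439*, *Gm10240* and *Gm4742*, and 3 protein-coding genes named with them as parents, *Atp5o*, *Rps15a* and *Rpl21*. The 9 symbols correspond to 10 of the 53468 gene records of the count table, because *Atp5o* has 2 records, ENSMUSG00000022956 and ENSMUSG00000116933. The members were chosen by their own counts in these libraries, namely pseudogenes that are counted in some mice and are at or near 0 in others, so which mice lack a pseudogene is described below without a test. Sums of a parent and its pseudogenes carry that choice too, and nothing is read from how a pseudogene shifts their genotype differences.

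The libraries are poly(A) RNA sequenced as single 50-base reads from forebrain, midbrain and hindbrain of 6 mice at postnatal day 25 (P25). Each mouse gave all 3 regions, which makes 18 libraries from 3 wild-type mice and 3 *Fmr1*CRE mice of 1 litter. *Fmr1*CRE mice carry a single base change, knocked in with CRISPR/Cas9 on a C57BL/6 background, in a cis-regulatory element (CRE) of *Fmr1*, the X-linked gene of fragile X syndrome. The labels name neither the knock-in line nor the sex of the sequenced mice; in the study's text, postnatal animals of other assays are male. Whole dissected regions were used, so fewer cells of a type and less RNA per cell cannot be told apart.

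A processed pseudogene arises when an mRNA is copied back into DNA and inserted at another place in the genome. Such a copy carries no introns and usually has no promoter of its own, and because it resembles its parent, short reads from one can be assigned to the other. Ribosomal protein genes, whose mRNAs are abundant, have left many such copies in mammalian genomes. *Atp5o* encodes the OSCP subunit of the mitochondrial ATP synthase, while *Rps15a* and *Rpl21* encode proteins of the small and large cytosolic ribosomal subunits.

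The listed parents were checked against the sequences of the GENCODE M21 transcripts (build GRCm38). By the share of a pseudogene's 31-base words found in a protein-coding gene, *Gm5436* matched *Atp5o* (41.1%), *Rps15a-ps5* and *Rps15a-ps8* matched *Rps15a* (63.6% and 14.01%), and *Gm10240* matched *Rpl21* (86.3%). The other 2 pseudogenes do not come from a listed gene. *Gm16439* matched *Bnip3* (74.9%), which encodes a mitochondrial outer membrane protein of mitophagy and cell death, and *Gm4742* matched *Psma3* (34.7%), which encodes an alpha subunit of the proteasome. Both were therefore described beside these parents as well.

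All 6 are single-exon records. *Gm5436* lies at chr12:84258331-84258973 on the minus strand and *Rps15a-ps8* at chr4:53791070-53791456 on the minus strand, neither within another annotated gene. *Rps15a-ps5* (chr5:105797321-105797713, minus strand) lies in an intron of *Lrrc8d* on the opposite strand, and *Gm16439* (chr14:44596665-44597228, plus strand) overlaps an exon of AC160336.1 and an intron of *Gm5624*, both on the opposite strand. *Gm10240* (chr15:68309819-68310301, plus strand) and *Gm4742* (chr14:52368918-52369688, minus strand) overlap no other annotated gene. The parents lie elsewhere, *Atp5o* at chr16:91925214-91931687, *Rps15a* at chr7:118104372-118116188 and *Rpl21* at chr5:146832890-146837032.

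Each pseudogene aligned to the coding sequence of its parent, *Gm4742* with 2 gaps and the others with none, and identity ranged from 92.2% for *Rps15a-ps8*, with 30 mismatches in 387 bases, to 99.6% for *Gm10240*, with 2 mismatches in 483 bases. *Gm5436* was 97.0% identical to *Atp5o* over 643 bases and crossed all 6 exon junctions of the parent transcript without a gap. Its first stop in frame is at codon 214, after the 213 codons of the parent, whereas that of *Gm4742* is at codon 88 of 255. The stretches below are the 60-base windows shown for each pair, since the bases in which they differ, in capitals, are what lets a read be assigned to one of the pair. They are GENCODE M21 transcript sequences of build GRCm38, 5′ to 3′.
Atp5o-201, bases 657 to 716: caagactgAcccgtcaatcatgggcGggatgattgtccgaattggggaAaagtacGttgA
Gm5436-201, bases 525 to 584: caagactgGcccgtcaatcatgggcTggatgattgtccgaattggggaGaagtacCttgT
Rps15a-201, bases 250 to 309: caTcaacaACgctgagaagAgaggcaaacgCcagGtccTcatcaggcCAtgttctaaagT
Rps15a-ps8-201, bases 39 to 98: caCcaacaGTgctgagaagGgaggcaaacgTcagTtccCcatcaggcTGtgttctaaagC
Rps15a-201, bases 234 to 293: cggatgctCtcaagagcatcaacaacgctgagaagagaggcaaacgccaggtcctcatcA
Rps15a-ps5-201, bases 23 to 82: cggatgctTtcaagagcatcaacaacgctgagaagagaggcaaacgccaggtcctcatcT
Bnip3-201, bases 146 to 205: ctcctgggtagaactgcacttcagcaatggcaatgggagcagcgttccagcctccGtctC
Gm16439-201, bases 33 to 92: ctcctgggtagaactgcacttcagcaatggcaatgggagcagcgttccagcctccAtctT
Psma3-202, bases 378 to 437: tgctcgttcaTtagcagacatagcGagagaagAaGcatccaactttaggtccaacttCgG
Gm4742-201, bases 251 to 310: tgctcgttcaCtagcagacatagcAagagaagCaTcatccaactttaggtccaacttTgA
Rpl21-202, bases 758 to 817: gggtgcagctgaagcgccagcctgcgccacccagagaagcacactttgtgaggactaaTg
Gm10240-201, bases 374 to 433: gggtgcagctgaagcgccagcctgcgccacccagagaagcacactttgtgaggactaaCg
The windows hold 5 differences for *Gm5436*, 10 for *Rps15a-ps8*, 2 each for *Rps15a-ps5* and *Gm16439*, 6 for *Gm4742* and 1 for *Gm10240*.

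The share of 50-base windows found in no other annotated transcript depends on these differences and on further copies. It sets how well a count can be told from that of its relatives. It was 90.5% for *Rps15a-ps8*, 89.3% for *Gm4742* and 74.6% for *Gm5436*, and it fell to 52.6% for *Rps15a-ps5* and 25.6% for *Gm16439*. No window of *Gm10240* was unique. A second processed pseudogene, *Gm10163* on chromosome 9, is contained whole in *Gm10240* and lacks only its last 2 bases, shown in capitals in the pair below, so that 432 of the 434 windows of *Gm10240* are also in *Gm10163*.
Gm10240-201, bases 454 to 483: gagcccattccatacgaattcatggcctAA
Gm10163-201, bases 454 to 481: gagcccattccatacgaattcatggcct
A further copy, *Gm13370* on chromosome 2, is identical to *Gm10240* over all 483 bases and has no record in the count table. Reads from it cannot be told from those of *Gm10240*. Counts of *Gm10240* and *Gm10163* are therefore uncertain one by one, and their sum is given beside them. That sum may hold reads of *Gm13370* as well.

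**Figure D1:**
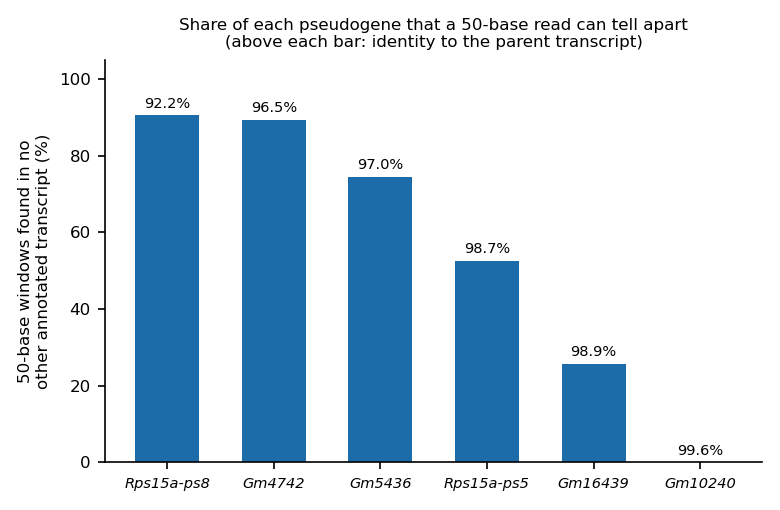
Share of the 50-base windows of each processed pseudogene (vertical axis, percent) that occur in no other annotated transcript, with the identity to the parent transcript above each bar. *Rps15a-ps8* has the highest share, 90.5%, and *Gm10240* has none.

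The libraries held between 22455512 and 28061185 counts. At this depth 3 counts, the limit taken for a library with no count, correspond to a CPM (counts scaled to library size) of 0.0989 to 0.132, and such limits cover counting error only. *Fmr1* itself was between 63.4 and 78.7 CPM in the 9 *Fmr1*CRE libraries and between 51.1 and 83.4 CPM in the 9 wild-type libraries. The summed level of 10 hindbrain markers was 108 to 137 CPM in hindbrain and at most 6.58 CPM elsewhere, that of 10 midbrain markers was 69.3 to 152 CPM in midbrain and at most 42.7 CPM elsewhere, and that of 10 forebrain markers was 388 to 542 CPM in forebrain, 228 to 381 CPM in midbrain and at most 18.4 CPM in hindbrain.

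The forebrain libraries of the 2 mice of replicate 3 stand apart. For the pseudogenes that differ between these mice, the forebrain library labelled *Fmr1*CRE replicate 3 carried what the midbrain and hindbrain of the wild-type replicate 3 mouse carried, and the reverse. Which libraries of these mice match their labels cannot be told apart from the counts. Tests that involve forebrain are given with and without these 2 libraries, while forebrain means, counts over gene lists and likeness values include them.

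*Gm5436* was counted in all wild-type midbrain and hindbrain libraries and was at or near 0 in those of *Fmr1*CRE mice. In midbrain it had 51, 55 and 70 counts in wild-type replicates 1, 2 and 3 and 1, 1 and 0 in *Fmr1*CRE replicates 1, 2 and 3. In hindbrain it had 74, 85 and 84 counts in wild-type and 1, 5 and 1 in *Fmr1*CRE mice. The genotypes did not overlap in these regions as labelled, and the same was true, with *Fmr1*CRE mice lower, of 4.91% of 18400 genes in midbrain and 5.68% of 19112 genes in hindbrain. The wild-type counts of 70 and 84 and the *Fmr1*CRE counts of 0 and 1 belong to the mice of replicate 3, whose forebrain libraries held 0 and 52 counts. Without both mice, 51 and 55 counts stood against 1 and 1 in midbrain and 74 and 85 against 1 and 5 in hindbrain. In forebrain the genotypes overlapped, with 46, 42 and 0 counts in wild-type and 1, 1 and 52 in *Fmr1*CRE mice. Without the 2 forebrain libraries of replicate 3, the remaining wild-type libraries had 46 and 42 counts and the remaining *Fmr1*CRE libraries 1 each. This contrast is among the values that chose the gene. In the fit across all genes, 0.00543% of the 18400 genes tested had an adjusted p under 0.05 for genotype in midbrain, a single gene, which was *Gm5436* itself, and nothing is read from that call.

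*Rps15a-ps8* and *Gm16439* are lacking in the same libraries although they lie on chromosomes 4 and 14 and come from different parents. *Rps15a-ps8* had 135, 249 and 0 counts in *Fmr1*CRE midbrain and 202, 233 and 280 in wild-type midbrain. In hindbrain it had 219, 323 and 0 counts in *Fmr1*CRE and 412, 419 and 346 in wild-type mice. *Gm16439* had 137, 261 and 0 counts in *Fmr1*CRE midbrain and 220, 257 and 168 in wild-type midbrain. The midbrain and hindbrain of *Fmr1*CRE replicate 3 held no count of either gene, with *Gm16439* at 149 and 275 counts in the other *Fmr1*CRE hindbrains and at 311, 258 and 186 in the wild-type ones. In forebrain the gap moved to the library labelled wild-type replicate 3. There *Rps15a-ps8* had 1 count and *Gm16439* none, while the forebrain of *Fmr1*CRE replicate 3 had 260 and 175, the other 2 *Fmr1*CRE forebrains 140 and 266 for *Rps15a-ps8* and 110 and 204 for *Gm16439*, and the other 2 wild-type forebrains 289 and 323 and 246 and 289.

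The level of both genes also differed among the mice that carried them. *Fmr1*CRE replicate 1 had the lowest count above 1 of *Rps15a-ps8* in each region, at 140 in forebrain, 135 in midbrain and 219 in hindbrain, where the other libraries that carried it had 260 to 323, 202 to 280 and 323 to 419. For *Gm16439*, replicate 1 had 110 and 137 counts in forebrain and midbrain and 149 in hindbrain, and wild-type replicate 3 had 168 and 186 in midbrain and hindbrain, with the *Fmr1*CRE replicate 3 forebrain at 175. The remaining libraries that carried it had between 204 and 311.

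*Rps15a-ps5*, the second copy of *Rps15a*, was absent from the same midbrain and hindbrain libraries but was less regular in forebrain. It had 37, 67 and 0 counts in *Fmr1*CRE midbrain, 73, 46 and 83 in wild-type midbrain, 108, 114 and 0 in *Fmr1*CRE hindbrain and 110, 80 and 112 in wild-type hindbrain. In forebrain, 0, 40 and 29 counts in *Fmr1*CRE mice stood beside 77, 0 and 0 in wild-type mice. *Fmr1*CRE replicate 1 and wild-type replicate 2 thus had no count in forebrain although their midbrain and hindbrain libraries had 37 to 108 counts. Only 52.6% of the windows of this gene are unique, and how this bears on the forebrain values was not tested.

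*Gm4742* was lacking in another mouse, *Fmr1*CRE replicate 2, which had 0, 2 and 0 counts in forebrain, midbrain and hindbrain. *Fmr1*CRE replicates 1 and 3 had 49 and 48 counts in forebrain, 43 and 51 in midbrain and 76 and 63 in hindbrain. Wild-type replicates 1, 2 and 3 had 38, 41 and 41 counts in forebrain, 40, 46 and 49 in midbrain and 74, 63 and 47 in hindbrain. All 3 regions of the 1 mouse were at the limit of detection, and the 15 other libraries lay between 38 and 76 counts.

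*Gm10240* had no count in any region of *Fmr1*CRE replicate 1 and at least 2502 in every library of the other mice. *Fmr1*CRE replicates 2 and 3 had 3529 and 3348 counts in forebrain, 4015 and 3713 in midbrain and 4682 and 2502 in hindbrain. Wild-type mice had 3059, 4766 and 4450 in forebrain, 2865, 2981 and 4037 in midbrain and 5697, 5828 and 4665 in hindbrain. Its near-identical copy did the opposite. In *Fmr1*CRE replicate 1 *Gm10163* had 3906, 3225 and 4033 counts in these regions, but at most 1699 in any other library and none in 5 of them.

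The sum of both copies was more even than either. In *Fmr1*CRE replicate 1 it was 154, 131 and 143 CPM in forebrain, midbrain and hindbrain, the lowest of the 6 mice in each region, against 170 to 192 CPM, 138 to 152 CPM and 169 to 219 CPM in the other mice. Between the 6 mice of a region, the highest sum was 1.25, 1.16 and 1.53 times the lowest in forebrain, midbrain and hindbrain, while *Gm10240* alone ran from 0 to 192, 152 and 211 CPM. In *Fmr1*CRE replicate 1 all counts of the pair were thus on *Gm10163*.

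**Figure D2:**
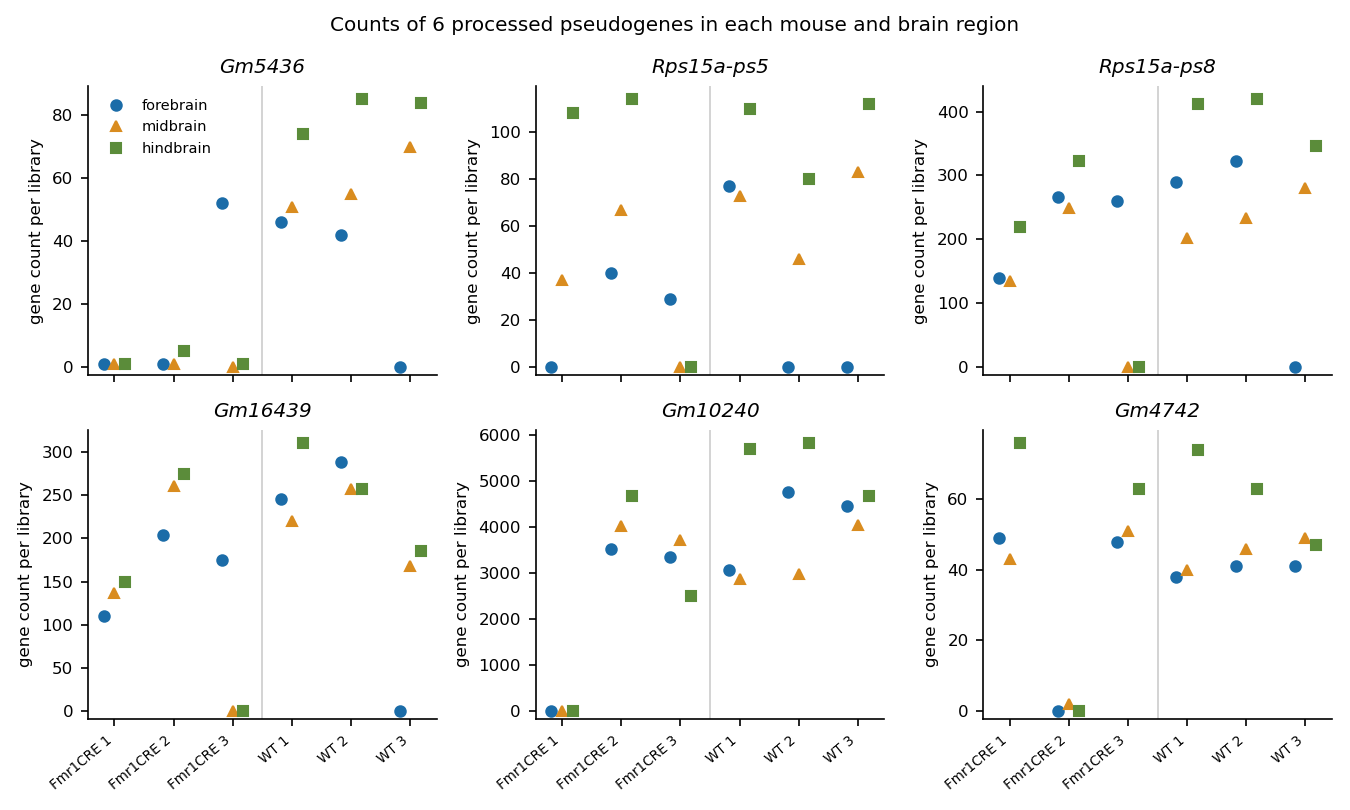
Gene counts of the 6 processed pseudogenes (vertical axes, counts per library) in each mouse (horizontal axis, genotype and replicate number), with forebrain as circles, midbrain as triangles and hindbrain as squares. *Gm5436* is at 5 counts or fewer in *Fmr1*CRE mice except in the forebrain of replicate 3, *Gm10240* is at 0 in *Fmr1*CRE replicate 1, and *Gm4742* is at 2 or fewer in *Fmr1*CRE replicate 2.

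To place the 6 pseudogenes among all genes, a gene was counted as present in a mouse with at least 10 counts in both its midbrain and hindbrain libraries, and as absent with at most 3 in both. Of the 21617 genes that reached 10 counts in one of these libraries, 16 were present in some mice and absent in all others (0.0740%). They included 12 of 871 processed pseudogenes (1.38%) and 3 of 16484 protein-coding genes (0.0182%), the remaining one being an unprocessed pseudogene. Of the listed pseudogenes 5 met the definition, and *Gm5436* missed it by the 5 counts of *Fmr1*CRE replicate 2 hindbrain. These shares describe how the members were picked and carry no test. The 16 genes included 5 that differed between the 2 mice of replicate 3, and in forebrain all 5 went the opposite way. These were *Rps15a-ps5*, *Rps15a-ps8*, *Gm16439*, *Gm26983* and the histone pseudogene *Hist1h2al*, the last named after its counts were seen.

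*Gm26983*, on chromosome 1 in an intron of *Pcmtd1*, is another processed copy of *Rps15a* with the same gaps. It had 8 to 23 counts in 15 libraries and none in the 3 libraries that lacked *Rps15a-ps8* and *Gm16439*. Over the 18 libraries, after the mean of each region was subtracted, the log2 CPM of *Rps15a-ps8* was most like that of *Gm16439* (Pearson r = 0.99) and *Gm26983* (r = 0.98), followed by *Rac3* (r = 0.94). *Gm16439* was most like *Rps15a-ps8*, *Gm26983* (r = 0.97) and *Rac3* (r = 0.94), and *Rps15a-ps5* was most like *Gm49355* (r = 0.84), *Gm26983* (r = 0.82) and *Rps15a-ps8* (r = 0.81). These values rest on the few libraries without the genes.

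Of the other pseudogenes, *Gm5436* was most like *1700052K11Rik* (r = 0.93), *Gm13112* (r = 0.87) and *Cd300lf* (r = 0.84), *Gm10240* like *Entpd4* (r = 0.92), *Ide* (r = 0.86) and *Ahnak* (r = 0.84), and *Gm4742* like *Stx8* (r = 0.90), *Zfp791* (r = 0.88) and *Cwc15* (r = 0.88). None of the genes named as nearest lay on the chromosome of the pseudogene in question.

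*Atp5o* varied little between mice of a region, and its pseudogene made up a small part of the family. In forebrain it was at 161 ± 8.10 CPM (SD, n = 3) in *Fmr1*CRE and 164 ± 3.97 CPM in wild-type mice, in midbrain at 156 ± 1.86 and 160 ± 4.11 CPM and in hindbrain at 229 ± 16.9 and 249 ± 20.6 CPM. The second *Atp5o* record, which overlaps exons of *Cryzl1* and *Donson* on the same strand, had 135 to 317 counts and is uncertain for that reason. *Gm5436* was between 0 and 1.40% of the family sum, which is the sum of both records and the pseudogene. The sum was at 171 ± 7.48 and 173 ± 3.60 CPM in *Fmr1*CRE and wild-type forebrain, 164 ± 1.62 and 169 ± 2.22 CPM in midbrain and 239 ± 18.9 and 262 ± 20.2 CPM in hindbrain.

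Genotype made no difference to *Atp5o* that exceeded the spread between mice. The log2 difference, *Fmr1*CRE minus wild-type, was 0.0054 (SE 0.092, adjusted p = 0.994 from edgeR) in forebrain, -0.030 (SE 0.077, adjusted p = 0.968) in midbrain and -0.13 (SE 0.11, adjusted p = 0.906) in hindbrain. The 95% intervals reached from -0.21 to 0.22, from -0.21 to 0.15 and from -0.40 to 0.13. For the family sum the differences were 0.017, -0.040 and -0.14. In the fits behind these tests, 0% of 18467 genes in forebrain, 0.00543% in midbrain and 0% of 19112 genes in hindbrain were called, and with sums in place of the family members 0% in each region. Unadjusted p values lay under 0.05 for 1002, 1135 and 981 genes, and DESeq2 called 31, 62 and 59.

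*Rps15a* varied more between mice. In CPM it was at 110 ± 1.68 (SD, n = 3) in *Fmr1*CRE and 101 ± 20.9 in wild-type forebrain, at 96.5 ± 3.47 and 90.5 ± 10.6 in midbrain, and at 108 ± 18.9 and 140 ± 7.47 in hindbrain. The hindbrain of *Fmr1*CRE replicate 3 was lowest, with 87.3 CPM, and this library held no count of either listed copy, so its family sum was also 87.3 CPM. The other *Fmr1*CRE hindbrains had sums of 136 and 127 CPM and the wild-type hindbrains 166, 156 and 150 CPM. The genotypes did not overlap in these sums, which with *Fmr1*CRE mice lower held for 5.67% of the 19105 features tested with family sums. Nothing is read from the sums, since the copies were chosen by such gaps. The ranges of *Rps15a* alone did not overlap in hindbrain either, at 87.3 to 124 CPM in *Fmr1*CRE and 132 to 147 CPM in wild-type mice. With *Fmr1*CRE mice lower, the same held for 5.68% of 19112 genes. *Rps15a-ps8* made up 0 to 13.5% of the family sum and *Rps15a-ps5* 0 to 3.60%. In the midbrain of *Fmr1*CRE replicate 3, also without either copy, *Rps15a* was at 92.9 CPM, within the range of the 6 mice (83.4 to 103 CPM). The forebrain library without *Rps15a-ps8* and *Rps15a-ps5*, wild-type replicate 3, was at 106 CPM, within 78.0 to 119 CPM.

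No genotype difference of *Rps15a* passed the test. The log2 differences were 0.15 (SE 0.16, adjusted p = 0.844) in forebrain, 0.092 (SE 0.11, adjusted p = 0.917) in midbrain and -0.38 (SE 0.14, 95% interval -0.71 to -0.053, adjusted p = 0.875, unadjusted p = 0.028) in hindbrain. For the family sum, the hindbrain difference was -0.44 (SE 0.17, adjusted p = 0.874), against 0.15 in forebrain and 0.0046 in midbrain. The sum includes copies chosen for being at 0 in some mice, so nothing is read from its larger size. Without the library of *Fmr1*CRE replicate 3, the one that lacked both copies, the hindbrain difference fell to its smallest size, -0.25 for *Rps15a* and -0.27 for the sum. The difference between forebrain and hindbrain in the genotype effect on the sum was 0.55 (SE 0.21, adjusted p = 0.499 from edgeR), and 0.49 (SE 0.25, adjusted p = 0.374) without the 2 forebrain libraries of replicate 3. This comparison was not planned. Among the differences in genotype effect between regions, run for the parents and sums, it had the lowest unadjusted p (0.0203 from edgeR). Since the sum includes copies chosen for their gaps in these libraries, nothing is read from it. For *Rps15a* alone the difference was 0.49 (SE 0.20, adjusted p = 0.503 from edgeR).

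*Rpl21* was set apart by the mouse that lacked *Gm10240*. In that mouse, *Fmr1*CRE replicate 1, it was at 151, 120 and 147 CPM in forebrain, midbrain and hindbrain. The other 5 mice lay between 72.0 and 81.1 CPM in forebrain, between 59.8 and 65.5 CPM in midbrain and between 74.4 and 95.3 CPM in hindbrain. It thus lay above all others in each region. Group means reflected this single mouse, with 99.1 ± 44.5 (SD, n = 3) against 75.9 ± 4.53 CPM in forebrain, 82.9 ± 31.7 against 62.2 ± 2.16 CPM in midbrain and 101 ± 39.7 against 88.5 ± 7.42 CPM in hindbrain for *Fmr1*CRE against wild-type mice.

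The family sum of *Rpl21* and *Gm10240* turned the order round. It was lowest in *Fmr1*CRE replicate 1, at 151, 120 and 147 CPM, with 208 to 273 CPM in the forebrains, 181 to 218 CPM in the midbrains and 188 to 306 CPM in the hindbrains of the other mice. When *Gm10163* was added, the same mouse had 305 CPM in forebrain and 251 CPM in midbrain, the highest of the 6 mice in each (the others 242 to 273 and 198 to 218 CPM), and 290 CPM in hindbrain, where the others had 243 to 314 CPM. Most other annotated relatives had few counts. Of the 79 counted, 71 had at most 10 counts in every library and 3 more than 100 in any, namely *Gm10240*, *Gm10163* and *Gm28900*, the last with 446 to 1170 counts.

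Genotype differences of *Rpl21* alone turned on the same mouse. The log2 differences of *Rpl21* were 0.43 (SE 0.29, adjusted p = 0.813) in forebrain, 0.42 (SE 0.24, adjusted p = 0.821) in midbrain and 0.19 (SE 0.25, adjusted p = 0.935) in hindbrain. Without *Fmr1*CRE replicate 1 they were -0.038, 0.049 and -0.18. The sum with *Gm10240* gave -0.29 (SE 0.16, adjusted p = 0.806), -0.058 (SE 0.21, adjusted p = 0.981) and -0.57 (SE 0.18, adjusted p = 0.874). With 1 mouse left out in turn, that sum ran from -0.38 to -0.15 in forebrain. In midbrain it ran from -0.20 to 0.17 and in hindbrain from -0.76 to -0.41. *Gm10240* was chosen for its gap in *Fmr1*CRE replicate 1, so nothing is read from how the sum differs from *Rpl21* alone. Adding every annotated relative gave 0.088, 0.15 and -0.13, none past the threshold. Without the 2 forebrain libraries of replicate 3, the forebrain differences of *Atp5o*, *Rps15a* and *Rpl21* were -0.0027, 0.20 and 0.59, and those of their sums 0.0087, 0.12 and -0.34, from 2 mice against 2 and none past the threshold.

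**Figure D3:**
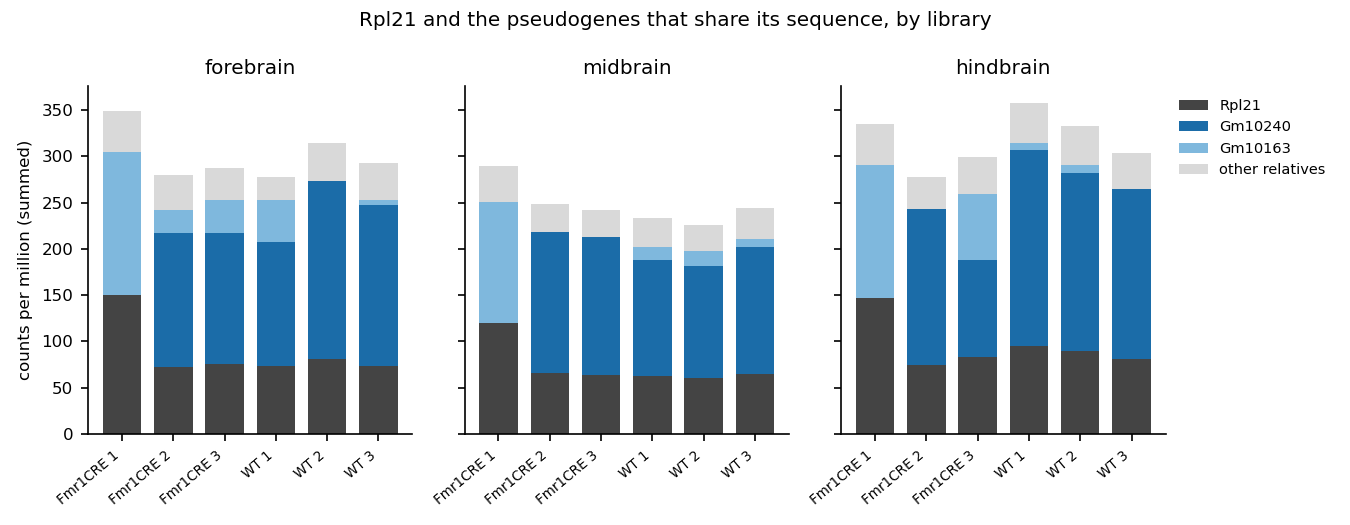
Stacked CPM (vertical axis) of *Rpl21*, *Gm10240*, *Gm10163* and the other annotated relatives in each library (horizontal axis, genotype and replicate number), 1 panel per region. In *Fmr1*CRE replicate 1 the *Gm10240* part is missing, the *Gm10163* part is at 131 to 154 CPM and the *Rpl21* part is higher than in the other mice.

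The listed copies of the 2 parents outside the list made up small parts of their families. *Bnip3* had 1852 to 3169 counts in the 18 libraries, of which *Gm16439* added 0 to 11.03% of the sum, and *Psma3* had 1183 to 2664, of which *Gm4742* added 0 to 3.66%. *Psma3* was lower in forebrain and midbrain than in hindbrain (log2 differences of -0.43 and -0.56, adjusted p = 0.00018 and 2.18e-05), and the former was -0.37 (adjusted p = 0.0021) without the 2 forebrain libraries of replicate 3. No region difference of *Bnip3* passed the test, but with the mouse as a block midbrain minus hindbrain did, at -0.22 (SE 0.068, adjusted p = 0.0171). The sum of *Bnip3* and *Gm16439* was at 106 ± 17.4 and 116 ± 5.65 CPM (SD, n = 3) in *Fmr1*CRE and wild-type forebrain, 104 ± 12.1 and 98.8 ± 10.98 CPM in midbrain and 118 ± 11.05 and 116 ± 14.8 CPM in hindbrain. The relatives of these parents included *Gm13835*, a copy of *Psma3* in an intron of *Lncpint*, which had 871 to 1589 counts over all 18 libraries and was named after its counts were seen. Among the copies of *Rps15a*, *Rps15a-ps7* was likewise present throughout, with 375 to 822 counts.

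**Figure D4:**
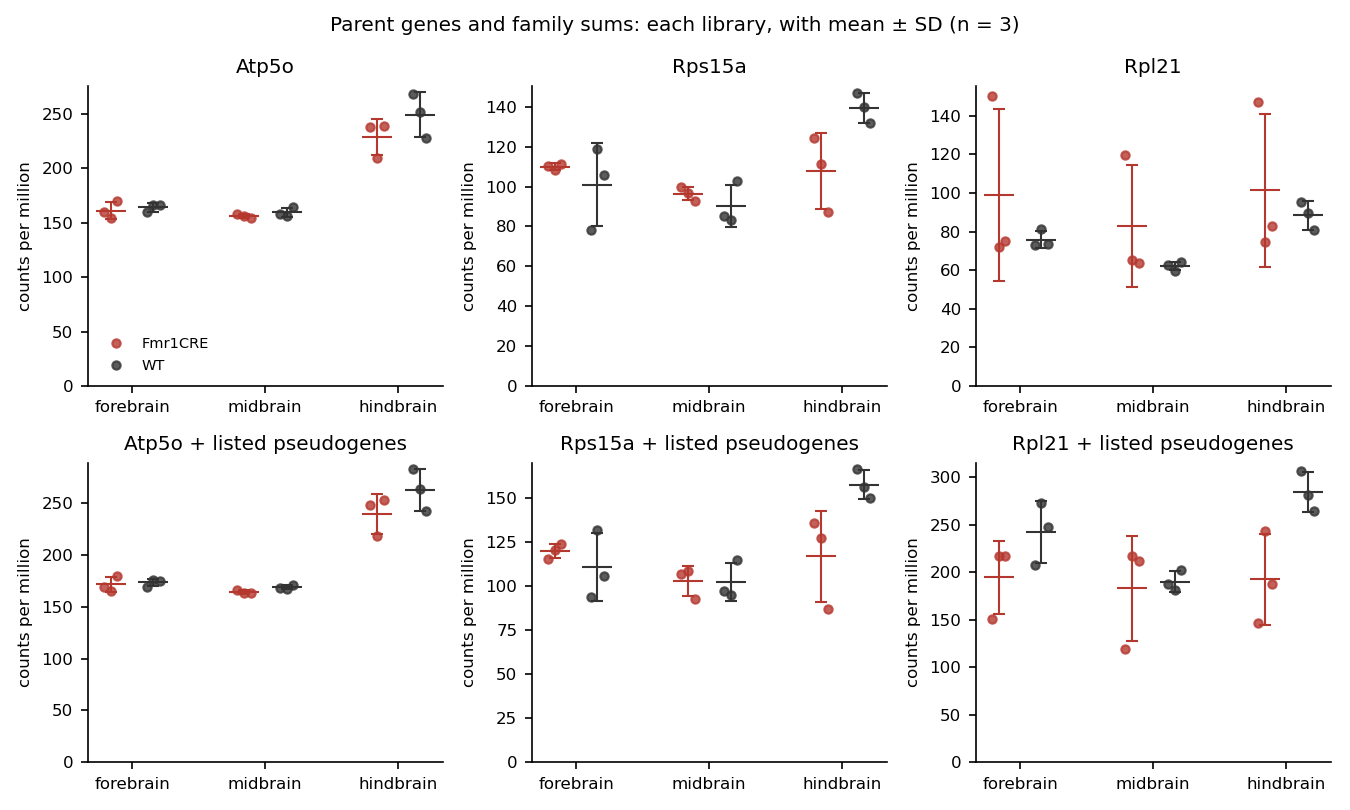
CPM (vertical axes) of the parent genes (top) and of their sums with the listed pseudogenes (bottom) in the 3 regions. Points are libraries, and bars are the mean ± SD of 3 mice, *Fmr1*CRE in red and wild-type in black. *Atp5o* is higher in hindbrain, and *Rpl21* is highest in *Fmr1*CRE replicate 1.

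Other genes of the parents' complexes gave the setting for genotype. Of 18 ATP synthase genes, *Atp5o* and the inhibitory factor *Atpif1* (*Atp5if1*) included, 0 were called in any region by edgeR. None had an unadjusted p under 0.05. Their median log2 difference was 0.033 in forebrain, -0.0032 in midbrain and -0.16 in hindbrain, where all genes tested had medians of 0.00095, -0.0046 and -0.0091. Of 78 cytosolic ribosomal proteins 0 were called, with 63, 72 and 1 above 0 and medians of 0.064, 0.095 and -0.22. Unadjusted p lay under 0.05 for 0, 2 and 15 of them. Among all genes tested it did so for 1002 of 18467, 1135 of 18400 and 981 of 19112, and 9260, 9016 and 9240 were above 0. In midbrain and hindbrain *Rpl21* had the highest difference of the 78, and in hindbrain it was the only one above 0. These values of *Rpl21* turned on *Fmr1*CRE replicate 1, without which they were 0.049 in midbrain and -0.18 in hindbrain. *Rps15a* was the sixth lowest in hindbrain.

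Region differences were tested with 6 libraries against 6, and the comparisons share libraries. They were large in these tissues, where 51.7% of 20363 genes were called between forebrain and hindbrain, 19.3% between forebrain and midbrain and 49.1% between midbrain and hindbrain, and with family sums 51.7%, 19.4% and 49.1%. Against this, 3 of 9 tests of the parents and 3 of 9 of the sums passed. *Atp5o* was lower in forebrain than in hindbrain, with a log2 difference of -0.55 (SE 0.058, adjusted p = 8.05e-07 from edgeR), and lower in midbrain than in hindbrain, with -0.60 (SE 0.058, adjusted p = 6.30e-07), and its family sum differed by -0.54 and -0.59. Without the 2 forebrain libraries of replicate 3 *Atp5o* differed by -0.58 (adjusted p = 6.91e-06) and -0.59 (adjusted p = 2.32e-06), and its sum by -0.56 and -0.59. Forebrain minus midbrain was 0.044 (SE 0.058, 95% interval -0.079 to 0.17, adjusted p = 0.649), and 0.015 (adjusted p = 0.903) without those libraries. The same direction held for 14 of 18 ATP synthase genes called lower in forebrain than in hindbrain and 16 of 18 in midbrain, with none called higher. Marker genes of other cells were also higher in hindbrain. The summed level of 8 choroid plexus genes, all detected, was 924 to 3263 CPM in hindbrain, 385 to 884 CPM in forebrain and 182 to 501 CPM in midbrain, and that of 5 blood genes was 1058 to 2706, 505 to 1546 and 441 to 1020 CPM. Their part in the region differences was not tested.

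*Rps15a* was lower in midbrain than in hindbrain, with a log2 difference of -0.39 (SE 0.10, adjusted p = 0.0046) and -0.40 (SE 0.11, adjusted p = 0.0051) for its sum. Between forebrain and hindbrain it differed by -0.22 (SE 0.10, adjusted p = 0.0826), and between forebrain and midbrain by 0.17 (SE 0.10, adjusted p = 0.257), neither past the threshold. Without *Fmr1*CRE replicate 3 the former was -0.29 (adjusted p = 0.0426) and that of the sum -0.33 (adjusted p = 0.0112). With each other mouse left out in turn, the adjusted p of *Rps15a* ran up to 0.354, and without the 2 forebrain libraries of replicate 3 it was 0.118, with a difference of -0.24. Forebrain minus midbrain was then 0.15 (adjusted p = 0.428). Of the 78 ribosomal proteins, 72 were called lower in midbrain than in hindbrain and 57 higher in forebrain than in midbrain. Their medians were -0.39 and 0.31, where all genes had medians of -0.030 and 0.023. Of all 20363 genes, 4880 and 1911 were called in these directions. Between forebrain and hindbrain, 17 ribosomal proteins were called lower in forebrain and 6 higher, against 5147 and 5383 of all genes.

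For *Rpl21* the mouse mattered to the call. The difference between midbrain and hindbrain was -0.40 (SE 0.21, adjusted p = 0.125 from edgeR). With the mouse as a block, since the regions are labelled as from the same animals, it was -0.40 (SE 0.069, adjusted p = 0.00036 from edgeR). Forebrain minus midbrain was 0.27 (SE 0.21, adjusted p = 0.396) and with the block 0.26 (SE 0.069, adjusted p = 0.0194), or 0.27 (adjusted p = 0.0596) when the 2 forebrain libraries of replicate 3 were also left out. Without *Fmr1*CRE replicate 1 these were -0.39 (adjusted p = 0.00064) and 0.24 (adjusted p = 0.0454), whereas the adjusted p reached 0.288 and 0.612 without other mice. Its sum with *Gm10240* gave -0.33 for midbrain minus hindbrain (SE 0.15, adjusted p = 0.0863), and -0.34 with the block (SE 0.11, adjusted p = 0.0181). Forebrain minus hindbrain of *Rpl21* was -0.13 (SE 0.21, adjusted p = 0.637). Without the 2 forebrain libraries of replicate 3 and with no block, this was -0.030 (adjusted p = 0.931) and forebrain minus midbrain 0.36 (adjusted p = 0.303).

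The 6 pseudogenes passed the filter on low counts, and 0 of their 18 region tests were called by edgeR, with 0 at an unadjusted p under 0.05 and 0 called by DESeq2. Log2 differences ran from -1.61 to 1.86 with standard errors of 0.74 to 1.19. With the mouse as a block and without the 2 forebrain libraries of replicate 3, a fit chosen after seeing the data, *Rps15a-ps8* differed by -0.52 between midbrain and hindbrain (SE 0.11, adjusted p = 0.0026), and no other of the 18 tests was called. Leaving out 1 mouse also gave a call on 2 occasions. Without *Fmr1*CRE replicate 2, the mouse that lacks it, *Gm4742* differed by -0.42 between forebrain and hindbrain (adjusted p = 0.0422), and without wild-type replicate 1 *Rps15a-ps5* differed by -5.49 (adjusted p = 0.0257), where 3 of the 5 remaining forebrain libraries had no count.

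**Figure D5:**
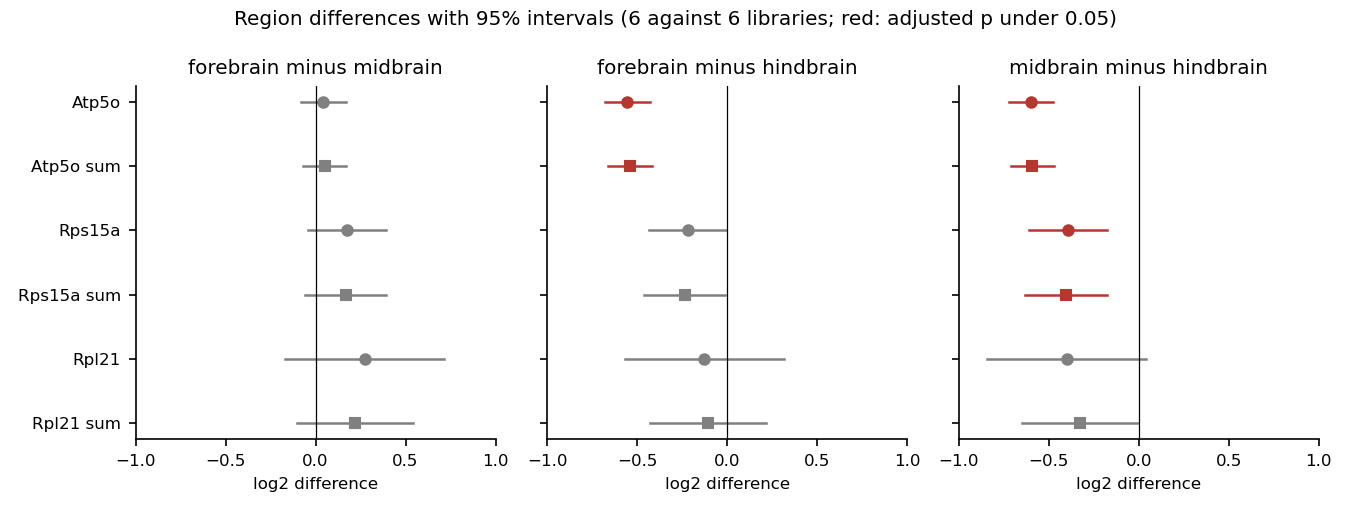
Log2 differences between regions (horizontal axes) with 95% intervals for the parent genes (circles) and their sums with the listed pseudogenes (squares), from 6 libraries against 6. Red marks an adjusted p under 0.05. *Atp5o* and its sum lie at -0.60 to -0.54 in both comparisons with hindbrain, and the intervals of *Rpl21* reach over 0.

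Levels per length were compared in TPM (transcript estimates scaled to length and to a fixed total per library), over the 18 sets of transcript estimates and without groups. As in the counts, the value assigned to a copy could exceed that of its parent. This held for *Gm10240*, which has no unique 50-base window and shares 77.0% of its windows with *Rpl21*. Both values thus depend on how shared reads were split. *Gm10240* had a median of 259 TPM (0 to 340) and *Rpl21* of 67.6 TPM (53.6 to 120), and of the reads of *Rpl21* 68.0 to 85.5% were placed on a single transcript with a retained intron, Rpl21-204. The other copies were below their parents. *Rps15a-ps8* had a median of 33.2 TPM, *Rps15a-ps5* of 7.47 and *Rps15a* of 962, most of it on the 250-base transcript Rps15a-203. *Gm5436* had 0.943 TPM against 217 for *Atp5o*, *Gm16439* had 10.7 against 36.5 for *Bnip3*, and *Gm4742* had 1.76 against 159 for *Psma3*. The range of *Gm5436* was 0 to 3.53 TPM, and its median falls between the sets that nearly lack it and those that hold it. Under 1 read was assigned to *Rps15a-ps5* in 5 sets, to *Gm10240* and *Gm16439* in 3 each, and to *Gm5436*, *Rps15a-ps8* and *Gm4742* in 2 each.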

How the data were processed

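Per the labels and the study's methods, the authors processed the reads of all 18 libraries with bcbio_nextgen and Salmon 0.14.0 (mm10, per the submitters' processing notes, which also name DESeq2 1.30.1) into transcript estimates (deposited as TPM and expected counts per transcript) and a table of gene counts. The annotation release is not given in the sources used here, and the assignment of libraries to the 2 pools of 9 in which they were run is not stated. The deposited gene counts are whole numbers but not plain sums of the estimates. They followed length-scaled sums in at least 99.3% of 19472 genes (within 1% or 1.5 counts). The library that each set of transcript estimates matched in this way had the same name in 18 of 18 sets but was the sample record the set is attached to in only 2 of 18, so transcript values are given as ranges over the sets with no groups. A table of variance-stabilized values was not used.

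Gene names, positions and sequences came from GENCODE M21 (GRCm38); 53431 of 53468 identifiers had a symbol. Parents and relatives were found by shared 31-base words (relatives: at least 10% of their words). Counts were scaled with TMM and tested with edgeR 4.0.16 (quasi-likelihood; R 4.3.3) over all genes that passed its low-count filter, with Benjamini-Hochberg adjustment over all of them at 0.05; genotype was fitted within each region, and regions in 1 fit of 18 libraries. DESeq2 1.42.0 was an alternative. Libraries with the same mouse label were taken to come from the same animal, which is in doubt for the forebrain libraries of replicate 3. Fits with the mouse as a block rest on these labels. The deviations of library pairs with the same label correlated between -0.17 and 0.18 (from -0.026 without the forebrain of replicate 3). On simulated data for genotype in midbrain (18400 genes, 200 changed by 1.5 on the log2 scale) the fit recovered 75.5%, and for forebrain against hindbrain (20363 genes) 87.0%. Other alternatives were other scalings and filters, leaving out mice or the 2 forebrain libraries of replicate 3, and wider families. Named were the 9 members, up to 5 relatives per parent and the 3 genes nearest to each pseudogene. The members and the gene lists were chosen with earlier results of these data known. Single-end 50-base reads cannot separate identical stretches, so the estimates split such reads between records.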

Additional observations from a re-analysis of the deposited data

How the results depend on the processing

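No call by genotype was made for a parent or a family sum under any alternative run. Recomputing 36 log2 differences under the alternatives gave 540 values, several of them from the same fit. Of these values 499 kept direction and side of the threshold, 21 passed it newly, none lost it and 20 changed sign, all of them differences that were not called. For *Atp5o* by genotype in forebrain the sign changed in 1 fit of all 18 libraries (-0.027), without both libraries of replicate 3 (-0.0027) and with no filter on low counts (-0.0037), and leaving out 1 mouse gave -0.015 to 0.036; in midbrain it was 0.013 without both libraries of replicate 3. The *Atp5o* sum in forebrain was -0.016 in 1 fit of all 18 libraries and -9.76e-05 to 0.041 with 1 mouse left out. With total counts alone, forebrain minus midbrain was -0.016 for *Atp5o* and -0.0084 for its sum. Leaving out 1 mouse gave -0.038 to 0.62 for *Rpl21* in forebrain and -0.18 to 0.38 in hindbrain, -0.20 to 0.17 for its sum in midbrain and -0.049 to 0.10 for the *Rps15a* sum in midbrain. With every annotated relative, the *Rpl21* sum was 0.088 in forebrain and 0.15 in midbrain.

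Calls by region rose for the parents from 3 to 5 of 9 with mouse as a replicate block, and lay between 3 and 5 with 1 mouse left out. For the sums they rose from 3 to 6 with every annotated relative, to 5 with at least 10 counts in every library and to 5 with total counts alone, and lay between 3 and 4 with 1 mouse left out. For the pseudogenes they rose from 0 to 1 of 18 with the mouse as a block and without the 2 forebrain libraries of replicate 3, and lay between 0 and 1 with 1 mouse left out. The cause was not tested. Same-numbered mice of the 2 genotypes did not deviate together (correlations from -0.12 to 0.069), and with the replicate number as a block genotype calls over all genes were 0, 1 and 0 in forebrain, midbrain and hindbrain. The call in midbrain was then a gene higher in *Fmr1*CRE mice, and that of *Gm5436* was lost. Shares of the family sum differed little in the transcript estimates, for example 60.4% and 60.6% for *Gm10240*. A count of 3 or fewer is at the limit of detection at this depth.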
